A study of Mus musculus with 12 samples.

Results

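Methylation was followed along 8 mouse genes of the polycystin and fibrocystin families, Pkd1, Pkd2, Pkd1l1, Pkd1l2, Pkd2l1, Pkd2l2, Pkhd1 and Pkhd1l1, taken by name from the GENCODE M1 annotation of mm9, which holds 22367 protein-coding genes. Each gene window ran from 2000 bp upstream of the gene start to the gene end. In these windows 422 CpGs had at least 5 reads in at least 2 of 3 libraries of each of PBS, F-MTAza and NP-MTAza, out of 1291670 such shared CpGs in the genome. The cells were PKD1-Het cells, proximal renal tubule epithelial cells isolated from Pkd1 flox/- mice that also carry TSLargeT, a temperature-sensitive large T antigen used to keep cells growing. Every group therefore carries 1 null and 1 floxed Pkd1 allele, and the reads do not tell the alleles apart. For 24 h the cells received PBS (3 libraries), 50 µM of the DNA methyltransferase inhibitor 5-aza-2′-deoxycytidine (Aza, 1 library used here), or Aza with 300 µM of metformin and 10 µM of tolvaptan. The 3 drugs were given either as free molecules (F-MTAza, 3 libraries) or in micelles (NP-MTAza, 3 libraries). The 6 F-MTAza and NP-MTAza libraries are called the combination libraries. Aza replicates 1 and 2 were left out by the rule that set the windows, and Aza replicate 3 is given as a single library with no test.

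Polycystin 1, the product of Pkd1, is a large membrane receptor with a long extracellular part, and polycystin 2, the product of Pkd2, is a cation channel. Both form a complex on primary cilia of tubule cells, and loss of either gene causes autosomal dominant polycystic kidney disease. Fibrocystin, the product of Pkhd1, is a ciliary membrane protein whose loss causes the recessive form. In mammalian genomes CpGs are mostly methylated within genes and between them, while dense CpGs at the starts of many genes are free of methylation. Aza is built into newly made DNA and traps the enzymes that copy methylation onto it.

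Reduced representation bisulfite sequencing reads DNA near sites of MspI, an enzyme that cuts at CCGG on both strands, so the CpGs seen in a gene depend on where that motif lies. The share of reference CpGs of a window that were shared CpGs ran from 0.727% in Pkd1l1 (10 of 1375) to 14.2% in Pkd2 (107 of 755). Pkd1 had 68 shared CpGs, Pkd1l2 had 83, Pkhd1 had 59, Pkd2l1 had 48, Pkd2l2 had 29 and Pkhd1l1 had 18. Between 68.8% (Pkd2l1) and 100% (Pkd1) of a gene's shared CpGs lay within 150 bp of a CCGG motif. The promoter of Pkhd1, from 2000 bp upstream to 500 bp downstream of the start, holds 0 CCGG motifs, whereas 88.4% of all 22367 promoters hold at least 1, with a median of 6. No shared CpG was found in the promoters of Pkd2, Pkd1l1, Pkd2l1, Pkhd1 or Pkhd1l1, while those of Pkd1, Pkd1l2 and Pkd2l2 held 30, 19 and 14. Other annotated genes that overlap the windows, such as Tsc2 at the 3′ end of Pkd1, held 0 shared CpGs within the overlap.

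The sequences below show a contrast seen in Pkd1 and Pkd2, a CpG-dense start that was read as unmethylated against sparser methylated CpGs in the gene body. They are from the mm9 genome, on the strand of each gene from 5′ to 3′, with the shared CpGs in capitals. Pkd1 upstream is chr17:24686745-24686894, which ends at the base before the gene start and holds 6 shared CpGs. Pkd1 start is chr17:24687551-24687667 in intron 1, with 13 shared CpGs. Pkd1 body is chr17:24722698-24722997, over part of exon 27, intron 27 and part of exon 28, with 6 shared CpGs. Pkd2 start is chr5:104889013-104889312, over parts of exon 1 and intron 1, with 34 shared CpGs. Pkd2 body is chr5:104907745-104908044, over parts of intron 3 and exon 4, with 6 shared CpGs.
Pkd1 upstream: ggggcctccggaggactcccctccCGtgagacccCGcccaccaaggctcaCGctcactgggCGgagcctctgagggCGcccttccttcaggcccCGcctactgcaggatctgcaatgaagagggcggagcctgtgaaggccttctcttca
Pkd1 start: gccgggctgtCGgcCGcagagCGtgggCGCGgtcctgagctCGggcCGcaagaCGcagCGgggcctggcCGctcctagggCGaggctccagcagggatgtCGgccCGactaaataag
Pkd1 body: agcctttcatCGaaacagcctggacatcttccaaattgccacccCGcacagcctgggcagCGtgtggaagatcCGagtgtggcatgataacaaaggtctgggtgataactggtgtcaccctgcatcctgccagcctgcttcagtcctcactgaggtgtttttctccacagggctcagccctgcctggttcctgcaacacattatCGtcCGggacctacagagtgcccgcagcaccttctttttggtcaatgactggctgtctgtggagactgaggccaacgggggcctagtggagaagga
Pkd2 start: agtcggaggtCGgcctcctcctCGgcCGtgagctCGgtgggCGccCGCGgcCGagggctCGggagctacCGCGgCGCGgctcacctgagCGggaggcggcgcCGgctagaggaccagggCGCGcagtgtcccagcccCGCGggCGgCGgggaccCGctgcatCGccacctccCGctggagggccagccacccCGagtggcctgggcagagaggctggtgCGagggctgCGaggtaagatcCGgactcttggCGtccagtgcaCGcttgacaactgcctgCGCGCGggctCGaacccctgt
Pkd2 body: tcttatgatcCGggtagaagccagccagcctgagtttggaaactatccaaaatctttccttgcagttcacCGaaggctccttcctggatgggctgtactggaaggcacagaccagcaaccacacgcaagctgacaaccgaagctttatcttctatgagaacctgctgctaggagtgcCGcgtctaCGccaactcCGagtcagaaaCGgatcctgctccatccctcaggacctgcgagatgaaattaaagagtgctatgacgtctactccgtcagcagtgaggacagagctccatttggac

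Over the whole window of Pkd1 the methylation level, the percent of methylated reads at the shared CpGs, was 52.3%, 70.8% and 52.3% in the PBS libraries. It was 39.9%, 30.8% and 34.96% in the F-MTAza libraries and 32.0%, 34.1% and 39.1% in the NP-MTAza libraries. Aza replicate 3 stood at 37.4%. Every combination library lay below every PBS library, and the combination mean was 23.4 points lower (exact permutation test on the libraries, two-sided, p = 0.0119, the smallest that 84 splits of 9 libraries allow).

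The Pkd2 window read 57.2%, 61.9% and 46.4% in PBS, 35.1%, 39.1% and 47.6% in F-MTAza and 36.5%, 38.3% and 39.5% in NP-MTAza, with Aza replicate 3 at 29.9%. The combination mean was 15.8 points lower (exact permutation p = 0.0238), but F-MTAza replicate 3 lay above PBS replicate 3, so the groups overlapped. This was the smallest difference of the 8 genes, and without PBS replicate 1 or without PBS replicate 2 its exact permutation p was 0.0714. Fewer than 84 splits remain without a library, so a p-value can rise on that account alone.

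The other 6 windows fell without overlap between combination and PBS libraries, each with an exact permutation p of 0.0119. Pkhd1 stood at 94.4% ± 0.709 in PBS, at 65.7% ± 2.25 in F-MTAza and at 60.7% ± 0.338 in NP-MTAza (SD, n = 3 each). Pkd2l2, which encodes a polycystin-2-like protein, went from 80.2% ± 2.11 to 47.1% ± 8.89 and 55.4% ± 1.58 (SD, n = 3 each). Pkd1l1, a polycystin-1-like gene known for its part in left-right patterning of the embryo, went from 81.6% ± 9.33 to 56.1% ± 11.4 and 52.2% ± 3.97 (SD, n = 3 each), on 10 CpGs only. Of these 10 CpGs 0 were read in all 9 libraries. The Pkd1l1 levels of different libraries thus rest on partly different CpGs, which its permutation p does not take into account. Pkd1l2, a further polycystin-1-like gene, went from 69.6% ± 3.13 to 42.2% ± 4.79 and 45.1% ± 2.74 (SD, n = 3 each). Pkhd1l1, the fibrocystin-like gene, and Pkd2l1, which encodes a channel of the polycystin-2 family, began at 62.8% ± 6.97 and 63.1% ± 6.76 and ended at 38.2% ± 5.73 and 40.1% ± 0.833 in NP-MTAza (SD, n = 3 each). Where reads of a CpG are part methylated, a mixture of cells or of alleles and partial methylation in each cell cannot be told apart in such pooled DNA.

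**Figure D1:**
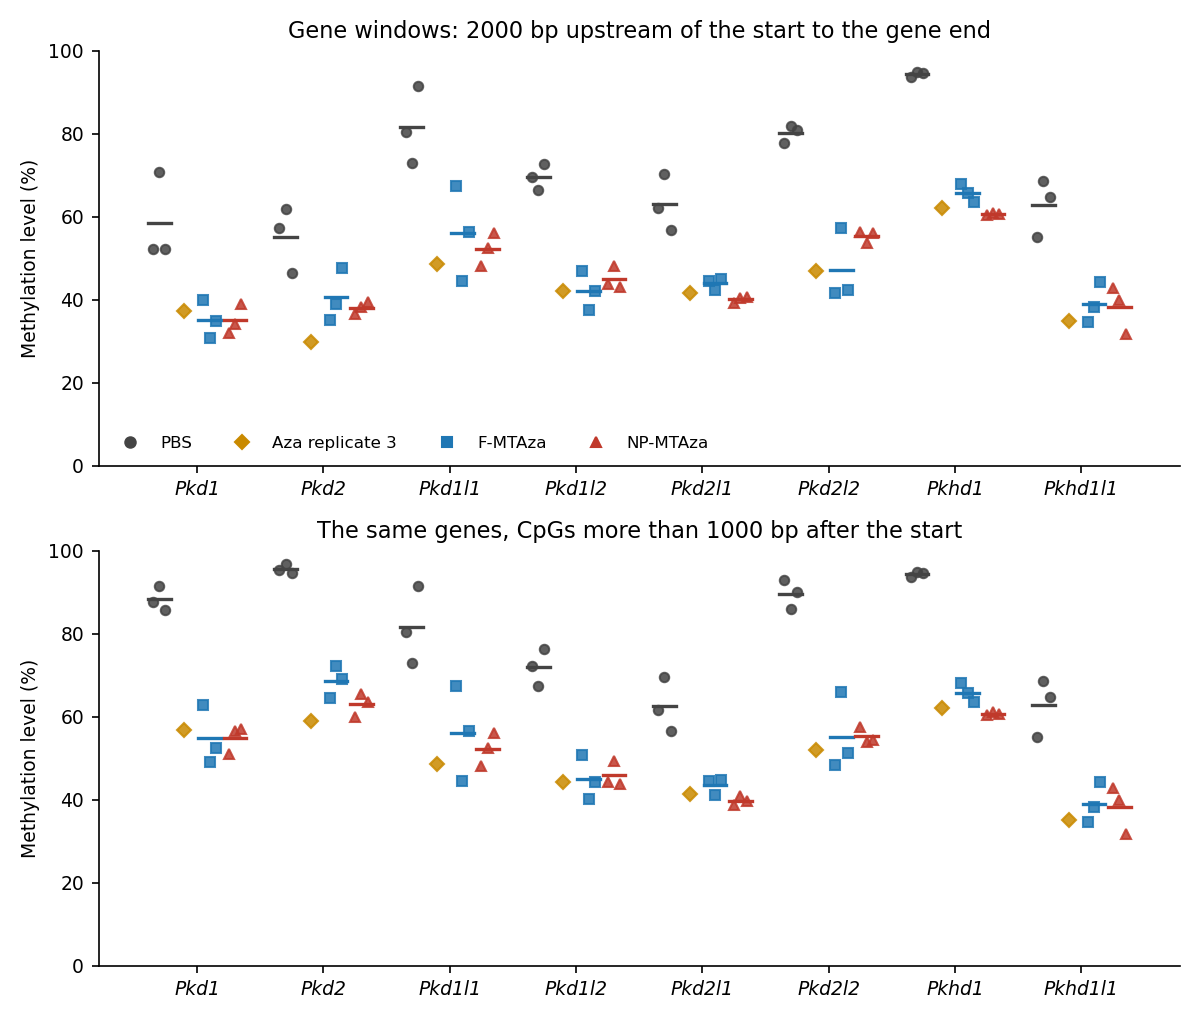
Methylation level (%) of each gene, with 1 point per library for PBS (circles), Aza replicate 3 (diamonds), F-MTAza (squares) and NP-MTAza (triangles), and bars at the means of 3 libraries. The upper panel covers the whole window and the lower panel the CpGs more than 1000 bp after the gene start, where Pkd1 and Pkd2 stand at 88.3% and 95.6% in PBS. In the lower panel no combination library of any gene reaches its PBS libraries, a separation that was not counted over all genes. Of 11834 such windows limma called 92.5% lower in F-MTAza and 93.9% in NP-MTAza.

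All 8 windows were called lower in F-MTAza and all 8 in NP-MTAza, at an adjusted p under 0.05 in limma (on the arcsine square root of the level, adjusted over all 15508 gene windows tested) and a difference of at least 10 points. Of all windows tested 70.0% were called lower in F-MTAza and 71.9% in NP-MTAza and 0.00645% and 0.0% higher, so a fall was common to most gene windows. Of the 8 windows, 7 had all combination libraries below all PBS libraries, against 68.3% of all windows. The limma adjusted p of the members ran from 4.92e-05 (Pkhd1) to 0.0207 (Pkd2) for F-MTAza and from 3.43e-05 (Pkhd1) to 0.00956 (Pkd2) for NP-MTAza. The combination level as a percent of the PBS level lay between 60.1% (Pkd1) and 71.3% (Pkd2), with a median of 65.2%, while the median over the 14342 windows with a PBS level of at least 10% was 65.3%. Pkhd1 had the largest fall of the 8, 31.2 points, and 10.7% of all windows fell further. Its level in PBS was also high, since 3.26% of all windows stood above it. In limma the Pkd2 call for F-MTAza was lost without PBS replicate 1 or 2 or without F-MTAza replicate 1 or 2 (adjusted p 0.0586 to 0.0734). The Pkd1 call for F-MTAza was lost with the upstream part left out, at a difference of -17.3 points (limma adjusted p = 0.0997). With NP-MTAza replicates 1 and 2 left out, the 2 libraries with 2 barcode sets, the NP-MTAza calls of Pkd1, Pkd1l1 and Pkd2 were lost (limma adjusted p 0.0702 to 0.125).

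**Figure D2:**
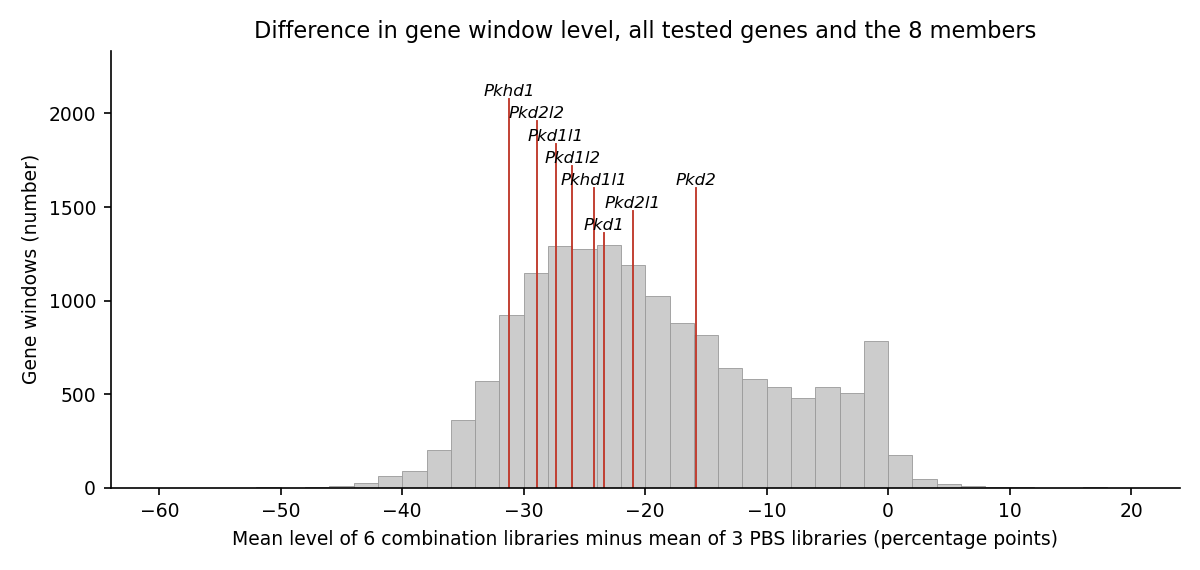
Histogram of the difference in window level, mean of 6 combination libraries minus mean of 3 PBS libraries in percentage points, over 15508 gene windows (bars 2 points wide), with lines at the 8 genes. The 8 genes lie between -31.2 and -15.8 points, and the median of all windows is -21.2 points.

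The start of Pkd1 was read as unmethylated in every group. From 126 bp upstream of the start to 762 bp after it, over 37 CpGs of the upstream part, exon 1 and intron 1, the PBS libraries read 0.414%, 4.69% and 0.675%. All 3 F-MTAza libraries and Aza replicate 3 read 0%, and the NP-MTAza libraries read 0.781%, 0.268% and 0%, within the range of the PBS libraries or below it (exact permutation p = 0.0357). Summed over these CpGs, 17 of 1437 read counts were methylated in PBS (1.18%, Wilson 95% interval 0.740% to 1.89%). The count was 0 of 692 in F-MTAza (Wilson 95% interval 0% to 0.552%) and 4 of 1194 in NP-MTAza (0.335%, Wilson 95% interval 0.130% to 0.858%). A read that spans several CpGs counts at each of them, so these intervals cover counting error only and are too narrow. The Pkd1 upstream and Pkd1 start sequences above show the 6 upstream and the 13 intron 1 CpGs of this stretch, and its 18 exon 1 CpGs are not shown.

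A second stretch of Pkd1, 6 CpGs from position -1367 to position -1131 relative to the start, was methylated and fell. It read 82.9%, 79.6% and 78.4% in PBS, 48.3%, 56.2% and 71.3% in F-MTAza and 52.2%, 56.3% and 55.6% in NP-MTAza, with Aza replicate 3 at 57.6%. All combination libraries were lower (exact permutation p = 0.0119). The methylated 6 and the unmethylated CpGs near the start lie in 1 promoter, so the promoter level depends on the weight each is given. With CpGs weighted by reads the Pkd1 promoter was called lower in both comparisons (differences -24.6 and -23.6 points, limma adjusted p = 0.0101 and 0.0106). Counted with equal weight per CpG, the differences were -2.36 and -6.91 points and neither was called (limma adjusted p = 0.560 and 0.0975). Over every listed CpG of each library the F-MTAza difference was -18.0 points and was not called (limma adjusted p = 0.0737).

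The body of Pkd1 fell as well. Over the 25 shared CpGs more than 1000 bp after the start the PBS libraries read 87.6%, 91.6% and 85.6%. The F-MTAza libraries read 62.9%, 49.1% and 52.5%, the NP-MTAza libraries 51.0%, 56.5% and 57.1%, and Aza replicate 3 read 56.7%. The PBS and combination libraries were 22.7 points apart at their closest and 33.5 points apart in their means (exact permutation p = 0.0119). The part with the most CpGs there was exons 27 to 29, which the Pkd1 body sequence opens, where 11 CpGs read 96.3%, 97.2% and 90.1% in PBS and between 50.8% and 68.0% in the combination libraries. Not every stretch began near full methylation, since 3 CpGs of intron 26 read 51.2%, 35.3% and 54.2% in PBS and 7.69% to 41.2% in the combination libraries. The last CpG of this stretch, at chr17:24719702, was methylated in every PBS read and had pooled levels of 32.3% in F-MTAza and 58.3% in NP-MTAza. The level of the stretch is thus an average of unlike CpGs.

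Pkd2 likewise had an unmethylated stretch after its start and a methylated body. Its first shared CpG lay 555 bp after the start, so its upstream part and promoter were not seen. From 555 to 937 bp after its start, 41 CpGs of exon 1 and intron 1 read 1.56%, 3.67% and 0.609% in PBS, 2.05%, 0.166% and 0% in F-MTAza and 0.901%, 0.164% and 0.430% in NP-MTAza. Methylated read counts were 38 of 2401 in PBS, 9 of 1212 in F-MTAza and 8 of 1750 in NP-MTAza, and the libraries overlapped (exact permutation p = 0.107). More than 1000 bp after the start, 66 CpGs read 95.4%, 96.7% and 94.5% in PBS against 64.6%, 72.2% and 69.0% in F-MTAza and 60.0%, 65.5% and 63.6% in NP-MTAza, with Aza replicate 3 at 59.1%. Here every combination library was lower and the mean difference was 29.8 points (exact permutation p = 0.0119).

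Along the Pkd2 body no stretch read under 80% in a PBS library that had reads there. In the Pkd2 body sequence and the CpGs next to it in intron 4, 9 CpGs read 93.7%, 94.1% and 96.7% in PBS and 65.4% to 85.4% in the combination libraries. In intron 14 and the last exon, exon 15, 19 CpGs read 97.6%, 98.6% and 98.9% in PBS and 53.8% to 81.0% in the combination libraries. In introns 1 and 2, 8 CpGs read 96.2%, 95.5% and 99.0% in PBS and 55.2% to 74.1% in the combination libraries.

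**Figure D3:**
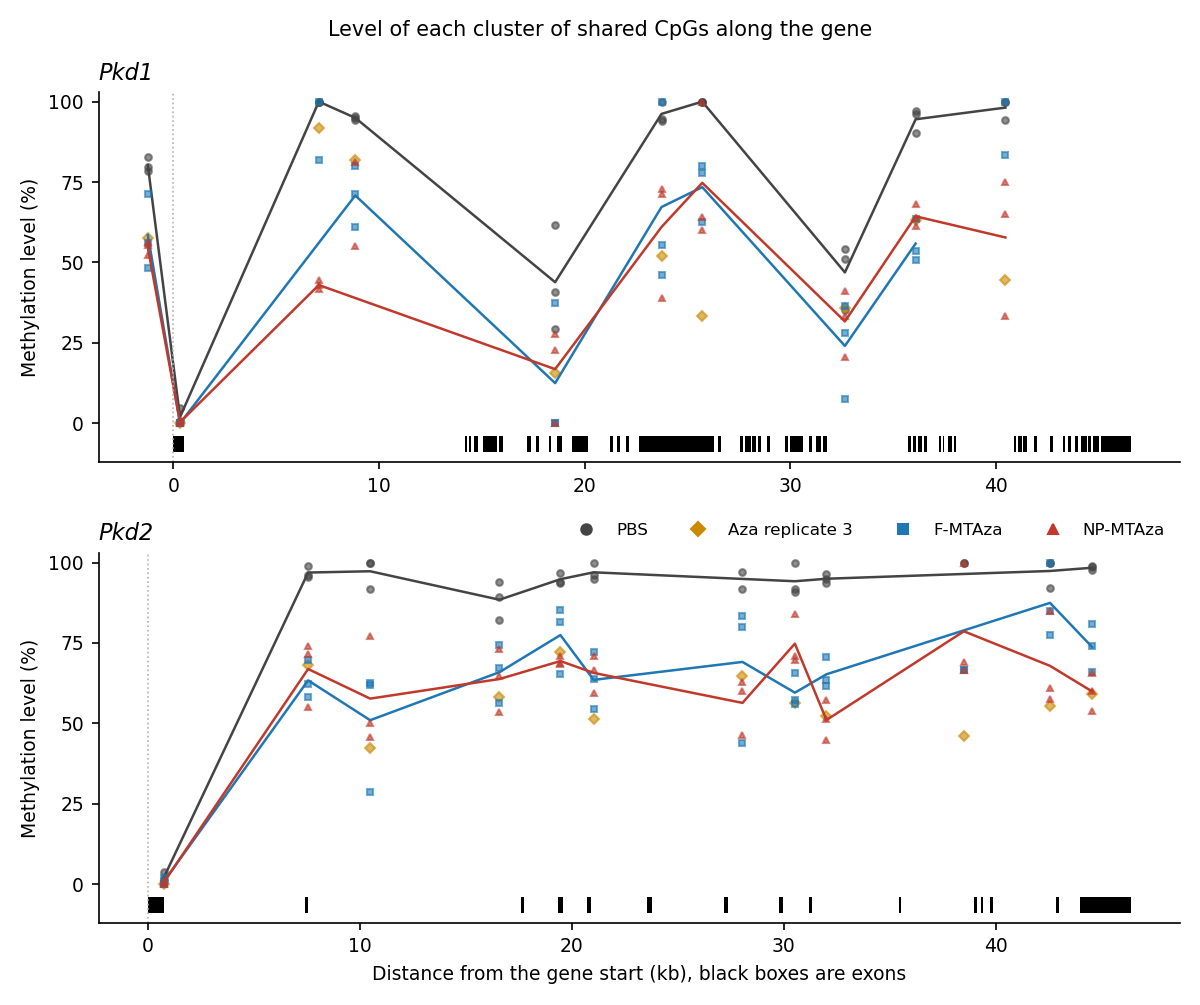
Methylation level (%) along Pkd1 and Pkd2 against distance from the gene start (kb), with 1 point per library and cluster of shared CpGs no more than 500 bp apart, and lines through the means of 3 libraries where all 3 have a value. Black boxes are exons. Clusters of 1 or 2 CpGs scatter widely, all groups meet near 0% at the start, and PBS lies above both combination groups in the body.

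Of the 68 shared CpGs of Pkd1, 38 had a pooled PBS level under 10% and 26 a level above 80%. In Pkd2 the numbers were 41 and 63 of 107. In the pooled combination libraries 0 CpGs of Pkd1 and 4 of Pkd2 stood above 80%. The number under 10% was 39 and 41. The share of window reads that fell on the unmethylated start varied between libraries, from 14.6% (PBS replicate 2) to 43.1% (F-MTAza replicate 3) in Pkd1 and from 31.1% (F-MTAza replicate 3) to 51.2% (PBS replicate 3) in Pkd2. PBS replicate 2 had the highest window level of Pkd1, and PBS replicate 3 the lowest PBS level and F-MTAza replicate 3 the highest combination level of Pkd2. With CpGs in the first 1000 bp and upstream left out, an alternative added after these levels were seen, the 8 genes were again all called lower in both comparisons by limma, where 92.5% and 93.9% of the 11834 windows tested were called lower. The limma adjusted p of Pkd1 was then 2.06e-05 for F-MTAza and 1.84e-05 for NP-MTAza, and that of Pkd2 was 5.50e-06 and 2.71e-06. The differences of the 8 genes from PBS ranged from -34.5 (Pkd2l2) to -20.8 points (Pkd2l1), with a median of -28.6, beside medians over all such windows of -27.6 for F-MTAza and -29.4 for NP-MTAza.

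Pkd1l2 and Pkd2l2 were the other members with shared CpGs at the promoter, and both promoters were methylated in PBS. The Pkd1l2 promoter read 62.7%, 66.0% and 63.2% in PBS, 37.2%, 26.5% and 29.4% in F-MTAza and 42.1%, 43.2% and 42.2% in NP-MTAza, with Aza replicate 3 at 34.3%. It was called lower in both comparisons (limma adjusted p = 0.000954 and 0.00441). The Pkd2l2 promoter read 55.8%, 72.1% and 71.3% in PBS, 28.1%, 42.9% and 32.1% in F-MTAza and 55.0%, 52.9% and 59.2% in NP-MTAza, with Aza replicate 3 at 35.2%. It was called lower in F-MTAza (difference -32.1 points, limma adjusted p = 0.00428), a call that was lost over the CpGs read in all 9 libraries (limma adjusted p = 0.134). In NP-MTAza its difference of -10.7 points did not pass (95% limma interval on the percent scale -23.4 to 2.00, adjusted p = 0.188). Of the promoters of the 8 genes, 3 could be tested, of which 3 were called lower in F-MTAza and 2 in NP-MTAza. Of 10314 promoters tested 24.6% and 26.7% were called lower, 0.0194% and 0.0% higher. Both the Pkd1 and the Pkd1l2 promoter had all combination libraries below all PBS libraries, as did 33.7% of all promoters.

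The run of CpGs called in both comparisons that lay upstream of Pkd1l2 is shown because it is the only such run outside Pkd2l2. It holds 4 shared CpGs, in capitals, and 3 of them were called in both comparisons. It is given as mm9 chr8:119606693-119606821 on the minus strand, from position -472 to position -344 relative to the gene start.
Pkd1l2 run: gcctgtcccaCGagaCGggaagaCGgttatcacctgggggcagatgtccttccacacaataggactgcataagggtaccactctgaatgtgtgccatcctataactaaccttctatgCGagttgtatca
Over the 3 called CpGs the levels were 87.1%, 97.1% and 97.0% in PBS, 27.3%, 50.0% and 42.9% in F-MTAza and 50.0%, 72.7% and 50.8% in NP-MTAza, with Aza replicate 3 at 67.3%. The lowest PBS library stood 14.4 points above the highest combination library. In intron 14 of Pkd2l2, from 29777 to 29904 bp after the gene start, 4 CpGs called in both comparisons read 97.7%, 95.8% and 98.6% in PBS, 34.4%, 55.3% and 56.8% in F-MTAza and 63.7%, 50.0% and 59.1% in NP-MTAza. These levels describe CpGs that were selected by the calls and carry no further test.

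Pkhd1 spans 560286 bp from start to end. Of its 3438 reference CpGs 59 were shared (1.72%), and most of these were methylated in PBS. Its window read 93.6%, 94.9% and 94.6% in PBS, 68.0%, 65.7% and 63.5% in F-MTAza and 60.3%, 61.0% and 60.6% in NP-MTAza, with Aza replicate 3 at 62.0%. The 3 NP-MTAza libraries lay below the 3 F-MTAza libraries, by 5.07 points in the mean (95% limma interval on the percent scale -9.89 to -0.254), which did not pass in the test itself, made on the arcsine scale over all windows (limma adjusted p = 1.00). Of its 59 shared CpGs 56 had a pooled PBS level above 80%, and 4 did in the combination libraries. The Pkhd1 sequence shown holds the most CpGs of any stretch of the gene read in every library, 6 CpGs of intron 35 at mm9 chr1:20460873-20461121 on the minus strand.
Pkhd1 body: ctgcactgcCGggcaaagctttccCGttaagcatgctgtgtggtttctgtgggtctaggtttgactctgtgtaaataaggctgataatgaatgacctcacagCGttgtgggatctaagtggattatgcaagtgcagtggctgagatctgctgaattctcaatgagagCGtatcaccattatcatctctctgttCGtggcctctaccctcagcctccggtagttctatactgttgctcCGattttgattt
These 6 CpGs read 95.8%, 97.0% and 97.7% in PBS, 65.8%, 71.4% and 83.3% in F-MTAza and 42.0%, 78.2% and 69.8% in NP-MTAza. Pkhd1 had no shared CpG within 1000 bp of its start, and 0 of its 59 stood under 10% in PBS.

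**Figure D4:**
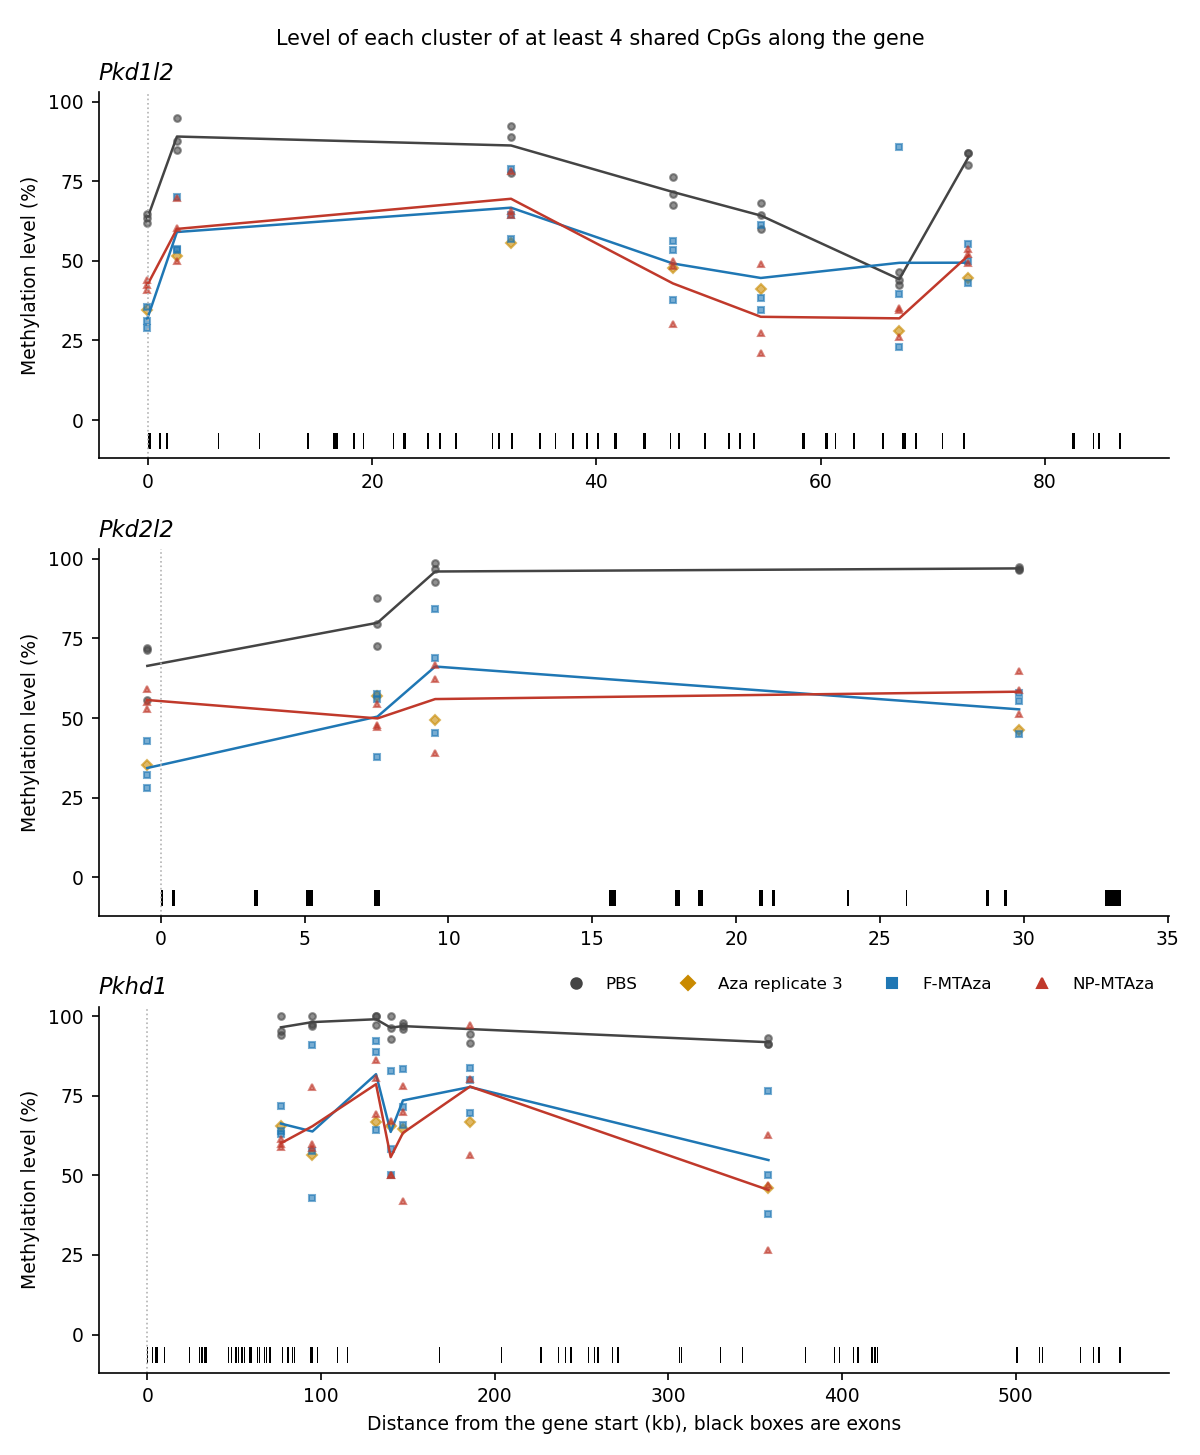
Methylation level (%) along Pkd1l2, Pkd2l2 and Pkhd1 against distance from the gene start (kb), for clusters of at least 4 shared CpGs, with 1 point per library and lines through the means of 3 libraries. The promoters of Pkd1l2 and Pkd2l2 lie above 50% in PBS, Pkhd1 stays above 90% in PBS in each cluster, and at the Pkd2l2 promoter the F-MTAza libraries (28.1% to 42.9%) lie below the NP-MTAza libraries (52.9% to 59.2%).

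Exon and intron CpGs were compared within each gene. Exon CpGs of the 7 genes with enough reads were lower in the combination libraries, with differences from -32.7 (Pkhd1) to -18.5 points (Pkd1l2), each with an exact permutation p of 0.0476 or less. Intron CpGs were lower in 7 of 8 genes, with differences from -36.8 (Pkd2l2) to -12.9 points (Pkd2), each with an exact permutation p of 0.0238 or less. Exon and intron levels of other genes were not computed, so these counts have no share over all genes beside them. Over whole windows, 68.3% of all genes had all combination libraries below all PBS libraries. The intron CpGs of Pkd1 differed by -11.0 points (exact permutation p = 0.298). The unmethylated start holds 13 of the 22 intron CpGs of Pkd1 and 18 of its 34 exon CpGs. Without PBS replicate 1 or 2, F-MTAza replicate 3 or NP-MTAza replicate 2 or 3, the exact permutation p of the Pkd1 exons was 0.0536 to 0.0714. Without PBS replicate 1 or 2 or any 1 NP-MTAza library, the exact permutation p was 0.0714 to 0.214 for Pkd2 exons and 0.0536 to 0.107 for Pkd2 introns, and F-MTAza replicate 1 (exons) and 2 (introns) gave 0.0714 and 0.0536 when left out. Tests without a library have fewer than 84 splits, so these p-values can rise with the order of the libraries unchanged.

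The fall in exons and the fall in introns differed past the test in Pkd1 alone, with the exon difference minus the intron difference at -18.4 points (exact permutation p = 0.0357). With equal weight per CpG that difference was -1.48 points (exact permutation p = 0.679), and among CpGs more than 1000 bp after the start it was -1.49 points (exact permutation p = 0.857). Leaving out any 1 of PBS replicate 1 or 2, F-MTAza replicate 1 or 3, or NP-MTAza replicate 2 or 3 also ended the call. Fewer than 84 splits remain there, which can end a call with the order of the libraries unchanged. After the first 1000 bp, exons of Pkd1 went from 91.1% ± 4.18 in PBS to 55.3% ± 4.25 in F-MTAza and 60.1% ± 2.13 in NP-MTAza, and introns from 81.4% ± 1.42 to 53.9% ± 17.1 and 45.2% ± 5.84 (SD, n = 3 each). In Pkd2 the exons went from 96.9% ± 1.58 to 71.8% ± 10.9 and 63.3% ± 5.55, and the introns from 94.8% ± 1.31 to 66.9% ± 1.36 and 62.9% ± 1.59 (SD, n = 3 each). For these CpGs the exon fall and the intron fall of Pkd2 differed by 0.626 points (exact permutation p = 0.881).

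**Figure D5:**
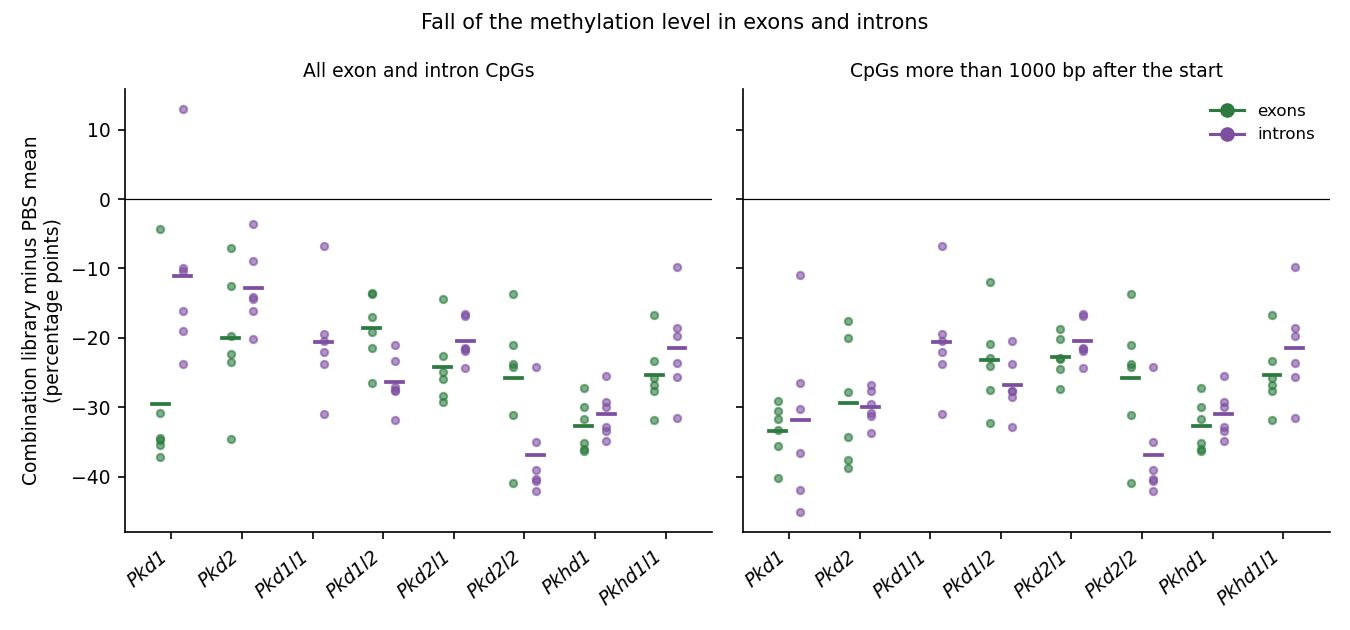
Level of each combination library minus the PBS mean (percentage points) in exons and introns of each gene, with 1 point per library and bars at the mean of 6 libraries. The left panel holds all exon and intron CpGs and the right panel those more than 1000 bp after the gene start, where exons and introns of Pkd1 fell by 33.4 and 31.9 points. Pkd1l1 exons are not drawn because F-MTAza replicate 1 had no reads there.

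Single CpGs were tested on pooled reads where all 6 libraries of a comparison had at least 5 reads, with a call at a q under 0.01 and at least 35 points. In the windows of the 8 genes 37 of 161 CpGs were called lower in F-MTAza (23.0%) and 80 of 317 in NP-MTAza (25.2%), and 0 were called higher. Of all CpGs tested 22.0% and 25.9% were called lower and 0.00449% and 0.00479% higher, so the shares in these genes were near those of the genome. The pooled test ignores the spread between libraries, and limma on the same CpGs called 6 (3.73%) and 21 (6.62%), beside 2.85% and 5.53% of all CpGs. By gene, the NP-MTAza calls ran from 8 of 69 in Pkd1 and 18 of 92 in Pkd2 to 16 of 27 in Pkhd1, and 1 of 6 CpGs tested was called in Pkd1l1. A CpG under 35% in PBS cannot be called lower, so these shares depend on the PBS level. Of the shared CpGs, 38 of 68 in Pkd1, 41 of 107 in Pkd2 and 0 of 59 in Pkhd1 stood under 10% in pooled PBS. Of the 422 shared CpGs, 354 were lower in the pooled combination libraries than in pooled PBS, 48 were equal and 20 were higher, by at most 12.3 points. The same count was not made over all shared CpGs. Among the CpGs tested in F-MTAza, the median difference was -22.9 points in the 8 genes and -21.8 over all.

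Among the CpGs called in both comparisons, the 1 or 2 of each gene with the largest mean difference were looked at singly, and those of 5 genes are given here. In intron 26 of Pkd1, at chr17:24719702, every PBS read was methylated (6 to 25 reads per library), against pooled levels of 32.3% in F-MTAza and 58.3% in NP-MTAza. In exon 27 of Pkd1, at chr17:24722758, the pooled level went from 95.2% in PBS to 60.0% and 55.6%. In intron 9 of Pkd2, at chr5:104920434, it went from 100% to 57.6% and 57.5%, and in intron 5, at chr5:104909404, from 100% to 58.3% and 60.9%. In intron 35 of Pkhd1, at chr1:20461096, it went from 100% to 61.8% and 54.3%, with NP-MTAza libraries of 7 to 14 reads between 14.3% and 85.7%. In intron 52 of Pkhd1, at chr1:20250757, it went from 90.2% to 53.1% and 48.4%. In exon 7 of Pkd2l1, at chr19:44228943, it went from 87.5% to 34.3% and 50.0%. In exon 19 of Pkhd1l1, at chr15:44333079, it went from 76.1% to 39.7% and 40.9%. Those of Pkd1l2 and Pkd2l2 lie in the runs described above. These CpGs were chosen by the size of the difference, so their levels are a description.

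The free and the micelle form of the 3 drugs, at the same doses and time, were compared over the same set of shared CpGs. A library could lack some CpGs of this set. Those read in all 9 libraries were 18 of 68 in Pkd1, 45 of 107 in Pkd2, 16 of 59 in Pkhd1 and 16 of 29 in Pkd2l2. Window and promoter levels of different libraries thus rest on partly different CpGs. The windows differed by -5.07 (Pkhd1) to 8.29 points (Pkd2l2), NP-MTAza minus F-MTAza, and limma called 0 of the 8 and 0 of 15508 windows, with 537 windows but 0 of the 8 at an unadjusted p under 0.05. The 95% limma intervals on the percent scale reached from -12.1 to 11.8 points for Pkd1, from -12.9 to 7.83 for Pkd2 and from -4.32 to 10.1 for Pkd1l2, so differences of this size are not resolved. At the promoters NP-MTAza was 21.3 points above F-MTAza in Pkd2l2 (95% limma interval 8.62 to 34.1) and 11.5 points above it in Pkd1l2 (5.33 to 17.6). Neither passed over 10314 promoters (limma adjusted p = 1 for both), of which 398, both of these among them, had an unadjusted p under 0.05 and 0 were called. The Pkd1 promoter differed by 1.08 points (-10.6 to 12.7). Of 225 CpGs of the 8 genes tested between the 2 forms, the pooled test, limma and both tests with a correction for extra spread called 0, and 12 were lower in NP-MTAza at an unadjusted p under 0.05 in the pooled test. Of all CpGs tested the pooled test called 0.0204% lower and 0.0106% higher.

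Aza replicate 3 lay below the lowest PBS library in all 8 windows, with differences from the PBS mean of -33.2 to -21.1 points, and within the range of the 6 combination libraries in 7 of them. Over all genes it was within that range in 11508 of 15507 windows, and its median difference from the PBS mean was -22.8 points, beside -27.7 over the 8. In Pkd2 Aza replicate 3 lay below all 6 combination libraries. Over the CpGs more than 1000 bp after the start it was again within the range of the combination libraries in 7 of 8 genes and below that range in Pkd2. That count, and the count of windows below every PBS library, were not made over all genes. With 1 Aza library, Aza and the combinations were not compared by a test.

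Further genes of cyst biology, a list of 22, were described beside the members. They include a further polycystin-1-like gene, Pkd1l3, the Wnt co-receptor gene Lrp5, genes of ciliary transport and structure, genes of protein maturation in the endoplasmic reticulum, genes of the vasopressin pathway, and the growth regulators Tsc1 and Tsc2. Of 19 windows tested 14 were called lower in each comparison (73.7%, beside 70.0% and 71.9% of all windows) and 0 higher, with median differences of -20.7 points in F-MTAza and -22.3 in NP-MTAza, beside -20.5 and -21.8 over all windows. The largest falls past the test in the mean of both were in Dzip1l, Tsc1, Kif3a and Adcy6. Dzip1l, a gene of the ciliary transition zone, went from 62.4% ± 5.61 in PBS to 33.3% ± 7.15 in F-MTAza and 26.2% ± 1.08 in NP-MTAza (SD, n = 3 each). Tsc1 went from 69.2% ± 11.4 to 39.9% ± 5.09 and 37.2% ± 6.74, and Kif3a, a motor of ciliary transport, from 80.8% ± 7.22 to 52.7% ± 1.71 and 51.0% ± 2.62 (SD, n = 3 each). Adcy6, an adenylyl cyclase downstream of the vasopressin receptor, went from 79.1% ± 1.14 to 50.6% ± 5.72 and 52.9% ± 1.27 (SD, n = 3 each). At promoters 3 of 15 were called lower in each comparison (20%, beside 24.6% and 26.7% of all promoters), with median differences of -3.08 and -3.20 points beside -5.13 and -5.60 over all promoters. The promoters of Dzip1l, Tsc1 and Adcy6 stood at 6.54%, 2.29% and 1.36% in PBS and were not called. That of Kif3a stood at 54.1% and was called lower in both comparisons. Promoters are part of the windows, so window levels also depend on the share of reads there.

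Among 12409 other genes with at least 20 shared CpGs, the window levels over the 9 libraries and Aza replicate 3 were most like those of Pkd1 in Ppargc1b, Uhrf2 and Lrrc48, at root mean square differences of 1.76, 2.15 and 2.97 points. For Pkd2 they were Bsx, Celf5 and Lars, at 2.35, 2.89 and 2.90 points. The median over all these genes was 17.6 points from Pkd1 and 17.4 points from Pkd2.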

How the data were processed

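The authors prepared RRBS libraries of MspI-cut DNA, used Trim Galore 0.4.4 for trimming and Bismark 0.20.1 with Bowtie2 for alignment to mm9, merged the strands of a CpG, and listed those of 5 reads or more. For every CpG the deposited files hold a fraction made of its methylated and total reads, and the percent methylated, rounded down in at least 99.9997% of rows of each library. Levels were computed here from the read numbers. NP-MTAza replicates 1 and 2 carried 2 barcode sets and the other libraries used here 1. Totals over listed CpGs were 25336747 to 65817118 reads per library, and the median CpG of a library had 7 to 9, which makes 1 CpG in 1 library imprecise. The labels do not say that replicates were separate cultures, so p-values measure the spread between these libraries, which may be technical.

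Exons were those of the longest protein-coding transcript of each gene. Windows needed at least 5 shared CpGs and 30 reads in every library, promoters at least 3 and 15. limma 3.58.1 in R 4.3.3 was fitted on all windows or promoters of the 9 PBS, F-MTAza and NP-MTAza libraries, with Benjamini-Hochberg adjustment. Single CpGs were tested on summed reads by logistic regression, with a likelihood ratio for the group term. Exact permutation tests were two-sided, 6 combination against 3 PBS libraries, since 3 against 3 cannot go below 0.1. Their p-values were not adjusted over the genes. Scripts ran in Python 3.11.15 with pysam 0.24.0, pandas 2.3.3, scipy 1.17.1, matplotlib 3.10.9 and numpy 2.4.6, and samtools 1.23.1 read the genome. Tests were tried on simulated data. Alternatives changed depth, CpG set, weights, scale, window, test and libraries.

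The members and lists were chosen with earlier results of these data known. All 8 members were named, with up to 2 runs of at least 3 CpGs called in both comparisons within 500 bp and up to 2 single CpGs per gene, up to 4 genes of the list of 22, and 3 genes like Pkd1 and like Pkd2. Sequences of gene bodies were added after levels were seen. Replicate numbers are in the labels, with nothing to say that they mark a shared culture or day.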

Additional observations from a re-analysis of the deposited data

How the results depend on the processing

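Every window difference kept its direction under all alternatives that gave a value. Leaving out 1 library at a time, the combination minus PBS differences ranged from -26.5 to -17.2 points in Pkd1, -20.2 to -12.5 in Pkd2, -31.7 to -22.4 in Pkd1l1, -27.6 to -24.4 in Pkd1l2, -24.1 to -17.4 in Pkd2l1, -30.2 to -27.0 in Pkd2l2, -32.1 to -30.6 in Pkhd1 and -28.1 to -21.3 in Pkhd1l1. Members called lower in F-MTAza numbered 7 to 8 in these fits. Same-numbered libraries did not deviate together over 15508 windows (correlations -0.098 to 0.0181). Deviations from a mean of 3 libraries also carry counting error, so these correlations cannot tell whether a number marks a shared culture or day. With the replicate block, the Pkd2 window difference of -15.8 points had an exact permutation p of 0.0741, where 27 splits allow 0.037 at the least, and all 8 members were still called by limma.

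With NP-MTAza replicate 3 alone in its group (libraries with 1 barcode set), where limma assumes that this library varies like the other groups, 5 of 8 windows were called lower in NP-MTAza, with Pkd1, Pkd1l1 and Pkd2 lost at adjusted p 0.0702 to 0.125, and 8160 of 15557 windows of all genes. In this setting 0 of 3 promoters were called, with 823 promoters called in all. At 10 reads per CpG 6205 windows were called lower in F-MTAza and 6350 in NP-MTAza of 9196 tested, and 869 and 923 promoters of 3617. With CpGs counted equally 1 of 3 promoters was called in NP-MTAza.

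For single CpGs the F test with a correction for extra spread called 0 in all comparisons, of the members and of all CpGs, while 66 and 143 member CpGs were lower at an unadjusted p under 0.05 in F-MTAza and NP-MTAza, and the chi-square version, added after the data were seen, called 34 and 70. limma called 6 and 21 of the members and 14581 and 45025 of all CpGs. At 10 reads 4 of 22 and 22 of 87 member CpGs were called, and 23215 and 69644 of all. At 25 points 64 and 151 member CpGs were called, and 204484 and 368114 of all. Between the 2 forms, 146 CpGs were lower in NP-MTAza by the pooled test, 66 at 10 reads, 16 by the chi-square version and 0 by limma and the F test.

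Exon CpGs passed in 2 of 3 genes at 10 reads, intron CpGs in 4 of 5 at 10 reads and 4 of 6 over CpGs in all 9 libraries. The exon and intron falls differed in 2 genes over CpGs in all 9 libraries and 2 over every listed CpG, and in 0 at 10 reads, with equal CpG weights, and after the first 1000 bp. Leaving out 1 library, they differed in 0 to 1 genes. Without 1 library the Pkd2 difference ranged from -11.6 to 0.532 points. It changed sign in Pkd2, from -7.08 to 3.25 points with equal weights, 0.626 after the first 1000 bp and 0.532 without PBS replicate 2, and in Pkhd1, from -1.73 to 3.17 over every listed CpG. The cause was not tested. Depth limits single CpGs, and the members other than Pkd1, Pkd1l2 and Pkd2l2 had no shared promoter CpGs.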
